A study of Mus musculus with 27 samples.

Results

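Transcription factors that mark the subfields of the hippocampus and the layers of the overlying cortex were followed through 27 single-nucleus RNA-seq libraries of mouse hippocampus, each from 1 mouse. The 9 genes, chosen by symbol from the 31053 gene rows of the files, were Prox1, Zbtb20, Bcl11b, Foxp2, Cux2, Fezf2, Rorb, Tshz2 and Tbr1. Each was read as the UMIs (individual captured RNA molecules) of a gene per 1000000 UMIs of the same nuclei (CPM), summed per library over all nuclei, over neurons and within classes of neurons. The question was which subfields and layers each library held, and whether these genes differed between genotypes beyond the spread between mice.

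The genotypes combined P301S, a transgene for mutant human tau (a dementia mutation) under control of the mouse prion gene (Prnp), with intact, heterozygous or deleted Cgas, the gene of a sensor of cytosolic DNA. The tau-free Cgas+/+ group held 5 mice, of which 3 were male, and the tau-free Cgas+/- and Cgas-/- groups held 2 males each. P301S Cgas+/+, P301S Cgas+/- and P301S Cgas-/- held 6 mice each, 3 males and 3 females. The labels named no age, strain, treatment or batch. The study left the 2 small groups out of its own comparisons and tested nuclei, with MAST, whereas mice are the replicates here.

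Subfield and layer identity in the forebrain is set by transcription factors that stay on in the adult neuron. Prox1 specifies dentate granule neurons and keeps them from a CA3 fate, Zbtb20 specifies hippocampal against neighbouring cortical identity, and Bcl11b (CTIP2) marks dentate, CA1 and subcerebral layer 5 neurons. In cortex, Cux2 marks upper layers, Rorb the input layer 4, Fezf2 instructs subcerebral layer 5 fate, Tbr1 and Foxp2 mark layer 6, and Tshz2 marks near-projecting deep neurons and other cortical types. Several also act outside these neurons: Zbtb20 and Rorb in astrocytes, Prox1 in interneurons and the oligodendrocyte lineage, Cux2 in interneurons and Foxp2 in striatal projection neurons.

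All 9 genes are protein-coding and lie on GRCm38, the assembly of mm10, at chr1:190118035-190170714 (Prox1, minus strand), chr16:42875881-43642602 (Zbtb20, plus), chr12:107910403-108003602 (Bcl11b, minus), chr6:14901349-15441977 (Foxp2, plus), chr5:121856366-122050102 (Cux2, minus), chr14:12342094-12348189 (Fezf2, minus), chr19:18930605-19111196 (Rorb, minus), chr2:169633013-170071816 (Tshz2, plus) and chr2:61802930-61814114 (Tbr1, plus). Promoter sequences (RefSeq, GRCm38.p6) were at hand for 8 of them and not for Foxp2. The 250 bases before a start are shown for 3 of these genes: the dentate gene Prox1 (chr1:190170828-190171077, minus strand), and the cortical genes Rorb (chr19:19111197-19111446, minus) and Tshz2 (chr2:169632259-169632508, plus). Capitals mark the E-box CANNTG, which reads the same on both strands and is the core that NEUROD-type neuronal factors recognise.
Prox1: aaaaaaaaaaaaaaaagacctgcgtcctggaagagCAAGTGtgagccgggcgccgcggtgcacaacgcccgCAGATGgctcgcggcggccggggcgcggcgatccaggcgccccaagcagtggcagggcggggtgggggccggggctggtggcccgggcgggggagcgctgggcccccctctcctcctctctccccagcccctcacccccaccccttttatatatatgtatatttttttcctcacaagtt
Rorb: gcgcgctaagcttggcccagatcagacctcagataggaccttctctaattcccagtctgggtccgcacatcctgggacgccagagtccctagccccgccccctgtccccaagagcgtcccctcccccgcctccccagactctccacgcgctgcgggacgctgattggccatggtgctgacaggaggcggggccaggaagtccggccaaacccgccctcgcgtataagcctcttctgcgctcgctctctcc
Tshz2: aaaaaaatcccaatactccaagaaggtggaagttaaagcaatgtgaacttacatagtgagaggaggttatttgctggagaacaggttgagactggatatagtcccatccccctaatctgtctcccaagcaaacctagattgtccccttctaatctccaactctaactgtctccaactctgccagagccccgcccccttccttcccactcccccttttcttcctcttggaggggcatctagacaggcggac
The Prox1 window held 2 E-boxes, and the Rorb and Tshz2 windows held 0. The windows before a second start counted otherwise, with 0 for Prox1 (chr1:190169516-190169765) and 2 for Rorb (chr19:19001118-19001367). Among the genes not shown, Zbtb20 held 2, Bcl11b 0, Fezf2 0 and Tbr1 1, and the windows of Cux2 held 1 and 2. Of 32851 mouse promoter windows of this length, 66.2% held at least 1 and 31.8% at least 2, so these counts describe the letters and set no gene apart.

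The files held 241938 barcodes, with 46091490 to 79484316 UMIs per library. The filter on genes and mitochondrial UMIs and the removal of doublets left 204852 nuclei, of which 98547 were neurons, 1657 to 5924 per library. Nuclei were clustered and named from marker lists, with the 9 genes left out of both the lists and the genes clustered on, and class names end in like. At most 48 barcode sequences were shared by any pair of libraries. Cgas itself, in microglia-like nuclei, was at 40.1 to 58.5 CPM in the 6 libraries labelled P301S Cgas-/- and at 26.3 to 56.5 CPM in the 6 labelled P301S Cgas+/+. In the tau-free groups it was at 32.2 to 39.0 CPM in Cgas+/+, 15.9 and 22.4 in Cgas+/-, and 21.6 and 33.1 in Cgas-/-. The transcript thus did not fall with the labelled deletion in the P301S mice, whether these reads come from the deleted stretch was not tested, and group names below stand for libraries labelled with that genotype. A pair of libraries stood apart. In P301S Cgas+/- replicate 1, striatal projection neuron-like nuclei made up 38.6% of the neurons and hippocampal-like nuclei 1.87%, and in P301S Cgas+/+ replicate 3, 50.8% of all nuclei stayed unnamed and 19.0% were neurons. The shares of neurons, the relations with them, the fold changes over neurons and those within each sex are also read below without one or both. An unnamed cluster of 926 nuclei, with Fat2, Gabra6 and Cbln3 among its leading genes, drew 67.7% of its nuclei from 1 library. By the counts of unnamed nuclei this was P301S Cgas+/+ replicate 2, with 8.08% of nuclei unnamed and 0% CA2-like and CA3-like neurons. That library was kept when the pair was left out. P-values of the contrasts measure the spread between mice of a group. Those of relations across libraries permute libraries of all groups together, so differences between groups, sexes and versions enter them. In sums over a library, fewer cells of a type and less RNA per cell cannot be told apart.

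Over the classes, the 3 hippocampal genes marked different classes. These levels describe the classes and carry no test. Prox1 was at 331 ± 36.3 CPM (SD over 26 libraries) in dentate granule-like nuclei, against 1.70 ± 1.04 in CA1-like and 2.28 ± 1.35 in cortical-like nuclei (27 libraries each). Its UMIs came from dentate granule-like nuclei to 58.5% and from oligodendrocyte-like nuclei, at 252 ± 36.8 CPM, to 27.5%. Zbtb20 was high in every hippocampal class, at 4249 ± 460 CPM in dentate granule-like, 2185 ± 589 in CA1-like and 4351 ± 278 in CA3-like nuclei, and at 160 ± 40.8 in cortical-like nuclei. Astrocyte-like nuclei, at 4786 ± 559 CPM, gave 20.9% of its UMIs. Bcl11b separated the fields within the hippocampus, at 437 ± 59.9 CPM in dentate granule-like and 450 ± 91.4 in CA1-like nuclei but 40.3 ± 24.6 in CA3-like nuclei. CA2-like nuclei lay between, at 257 ± 128 CPM (9 libraries). Bcl11b was also present in cortical-like (221 ± 83.2 CPM) and striatal projection neuron-like nuclei (216 ± 62.7 CPM). Among the classes it was highest in the small T cell-like class, at 1085 ± 186 CPM (4 libraries).

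The cortical genes had lower means in each hippocampal class than in cortical-like nuclei and differed in what else expressed them. Tshz2 was at 2589 ± 824 CPM in cortical-like and 10.3 ± 5.91 CPM in dentate granule-like nuclei, and cortical-like nuclei held 84.5% of its UMIs. Tbr1, at 14.7 ± 3.57 CPM in cortical-like nuclei, was at 5.13 ± 1.50 in dentate granule-like and 6.44 ± 4.74 in CA2-like nuclei (9 libraries), and among the classes was higher only in the small Cajal-Retzius cell-like class (38.9 ± 14.3 CPM), whose cells are known to express it. Cux2 was at 230 ± 66.2 CPM in cortical-like nuclei, at 322 ± 49.3 in inhibitory neuron-like and at 419 ± 76.1 in choroid plexus-like nuclei. Foxp2 was at 142 ± 81.1 CPM in cortical-like, 384 ± 192 in striatal projection neuron-like and 1207 ± 695 in fibroblast-like nuclei. Rorb was mostly an astrocyte signal here, with 74.2% of its UMIs from astrocyte-like nuclei (1753 ± 217 CPM) and 22.2% from neurons, and it was at 126 ± 82.4 CPM in cortical-like nuclei. Fezf2 was at 18.8 ± 7.37 CPM in cortical-like nuclei and at 27.7 ± 8.58 CPM in astrocyte-like nuclei, with 7.70 ± 3.22 in CA1-like and 8.01 ± 5.31 in CA2-like nuclei, so over all nuclei neither Rorb nor Fezf2 reads the cortex alone.

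**Figure D1:**
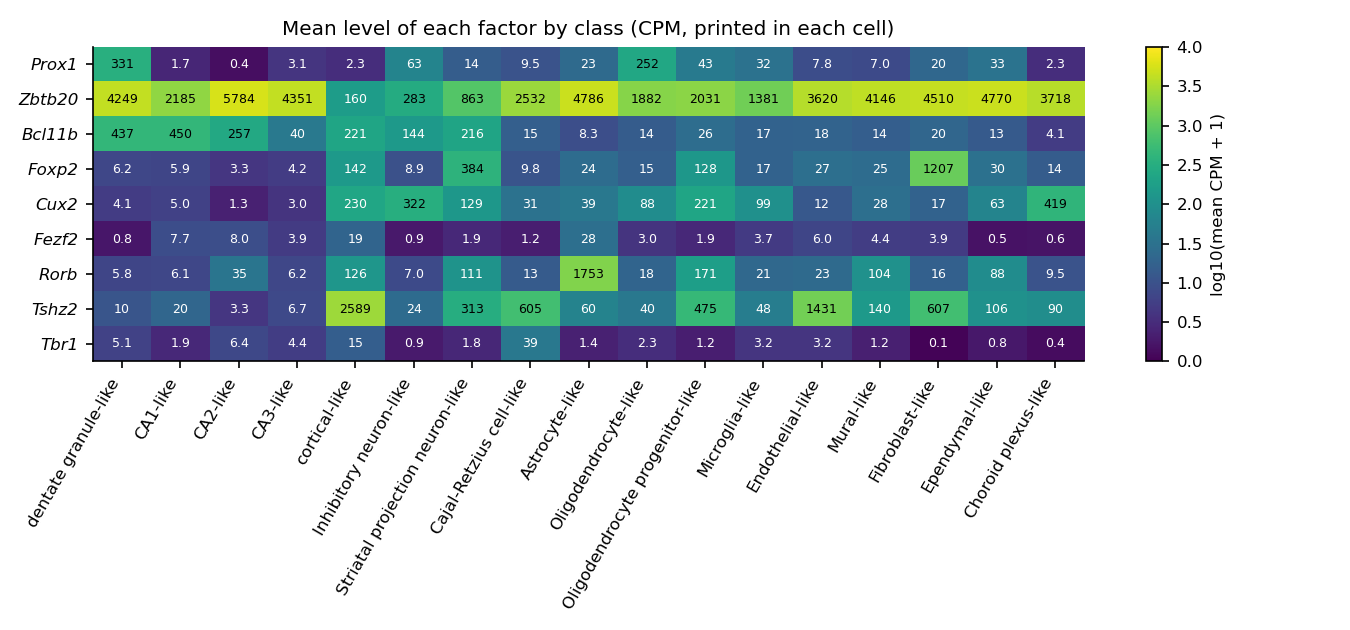
Mean CPM of each of the 9 transcription factors (rows) in each class of nuclei (columns), printed in each cell, with colour showing log10 of the mean CPM plus 1. Prox1 stands at 331 CPM in dentate granule-like nuclei, Tshz2 at 2589 CPM in cortical-like nuclei, and Rorb at 1753 CPM in astrocyte-like nuclei.

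Within the cortical-like nuclei the levels differed between subclusters, in places against their layer list. The largest subcluster named by the layer 6 list held 4190 nuclei, with Tbr1 at 29.1 CPM, Foxp2 at 206 CPM and Cux2 at 2.74 CPM. Another layer 6 subcluster, of 2701 nuclei, had the highest Foxp2 of all 41 excitatory subclusters, at 760 CPM, with Tbr1 at 32.0 CPM and Tshz2 at 125 CPM. Among subclusters matched to the layer 5 list, 1 of 867 nuclei had Fezf2 at 61.7 CPM and Bcl11b at 521 CPM, the combination known from subcerebral neurons, with Cux2 at 3.81 CPM. Rorb was concentrated in a subcluster of 3065 nuclei matched to the upper layer list, at 930 CPM beside Cux2 at 704 CPM, a layer 4 pattern. The largest cortical-like subcluster, of 5472 nuclei, had Tshz2 at 4131 CPM and Cux2 at 594 CPM with Bcl11b at 5.67 CPM. Its best list was near-projecting, a deep-layer type, so that the list name and its Cux2 level are at odds, and near-projecting and upper layer lists are pooled below. The entorhinal cortex and subiculum adjoin the hippocampus and share several of these markers, and no list separated them from neocortex. Other subclusters went across their list too. The one with the highest Tbr1 of all 41 (39.2 CPM), of 107 nuclei, matched the upper layer list, with Cux2 at 948 CPM. A layer 5 subcluster of 274 nuclei had Bcl11b at 7.73 CPM and Cux2 at 92.7 CPM, and a layer 6 subcluster of 3169 nuclei had Rorb at 289 CPM. A CA1-named subcluster of 343 nuclei also went against its name, with Zbtb20 at 67.5 CPM and Cux2 at 114 CPM. A larger CA1-named subcluster, of 2234 nuclei, had Zbtb20 at 830 CPM and Fezf2 at 15.2 CPM. The CA1-named subclusters of 1018, 3890 and 5487 nuclei had 2065 to 3144 and 2.47 to 9.44 CPM. The CA1-like levels and contrasts include all of these.

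The makeup of the neurons differed widely between libraries of the same genotype. Cortical-like nuclei made up 34.3%, 17.1%, 58.6%, 44.8% and 29.5% of the neurons in the 5 Cgas+/+ libraries, 41.9% and 11.1% in Cgas+/-, and 4.57% and 12.7% in Cgas-/-. They ranged from 3.58% to 55.7% with a median of 25.1% in P301S Cgas+/+, from 33.7% to 49.3% (median 40.0%) in P301S Cgas+/-, and from 28.7% to 68.5% (median 43.4%) in P301S Cgas-/-. The P301S Cgas+/+ group split by sex, with 9.11%, 3.58% and 6.54% in its 3 females and 55.7%, 41.2% and 41.5% in its 3 males. The 3 P301S groups overlapped, and both Cgas-/- libraries lay below every Cgas+/+ library. Dentate granule-like nuclei went the other way, at 15.1%, 50.5%, 6.75%, 25.6% and 18.5% in Cgas+/+, 14.2% and 37.6% in Cgas+/-, and 40.3% and 42.0% in Cgas-/-. They ran from 2.18% to 50.5% (median 25.8%) in P301S Cgas+/+, from 0.676% to 28.3% (16.9%) in P301S Cgas+/- and from 0.560% to 22.1% (15.6%) in P301S Cgas-/-. All hippocampal-like classes together made up 1.87% to 78.8% of the neurons over the 27 libraries, the lowest in P301S Cgas+/- replicate 1.

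**Figure D2:**
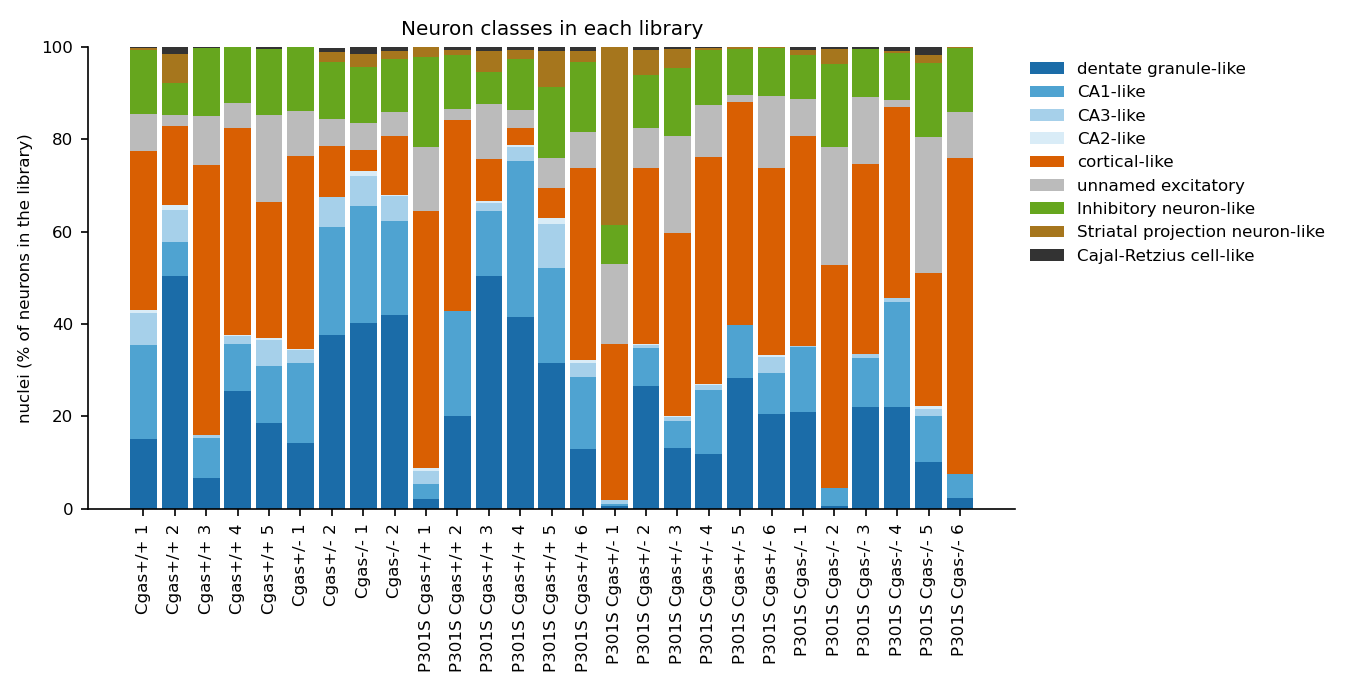
Percent of neurons (y axis) in each of the 27 libraries (x axis, by group and replicate), stacked by class. Cortical-like nuclei range from 3.58% to 68.5%, and P301S Cgas+/- replicate 1 holds 38.6% striatal projection neuron-like nuclei.

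The layers also varied within the cortical-like nuclei. Subclusters of the layer 6 and 6b lists made up 35.6 ± 2.62% of the cortical-like nuclei in Cgas+/+ (n = 5), 27.4 ± 12.8% in P301S Cgas+/+, 34.8 ± 5.22% in P301S Cgas+/- and 36.1 ± 8.32% in P301S Cgas-/- (n = 6 each). They made up 59.5% and 26.7% in the Cgas+/- libraries and ranged from 6.77% to 59.5% over the 27. The 2 lowest shares, 6.77% in Cgas-/- replicate 1 and 8.18% in P301S Cgas+/+ replicate 4, came from the libraries with the fewest cortical-like nuclei, 133 and 110. Layer 5 list subclusters made up 5.19 ± 2.25%, 11.6 ± 7.55%, 7.69 ± 3.41% and 9.05 ± 3.87% in the same 4 groups, and 1.86% to 25.6% over the 27 libraries. These shares were not tested.

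Differences in makeup between groups were tested for 5 classes in the 3 contrasts with 5 or 6 mice a group (15 tests). Excitatory nuclei of unnamed subclusters, in none of the 5 classes, made up 1.47% to 29.5% of the neurons over the 27 libraries. Their group means were 9.07% in Cgas+/+, 7.76% in P301S Cgas+/+, 12.5% in P301S Cgas+/- and 14.8% in P301S Cgas-/-. How far the tested shares depend on these unnamed nuclei was not tested. The upper limit on genes per barcode had removed 20030 barcodes before clustering. It took 289 to 1133 per library in Cgas+/+ and 510 to 870 in P301S Cgas+/+. In P301S Cgas+/- it took 365 to 1078 and in P301S Cgas-/- 311 to 2066. Per nucleus, CA3-like (35360551 UMIs in 2772 nuclei) and CA1-like nuclei (139536992 in 12972) held more UMIs than cortical-like nuclei (316836049 in 35296). How far this limit bears on the shares was not tested. In the deletion contrast, P301S Cgas-/- against P301S Cgas+/+, cortical-like nuclei averaged 45.6 ± 13.1% against 26.3 ± 22.4% of neurons, a difference of 19.3 percentage points (exact two-sided permutation p = 0.104, adjusted 0.284). In the heterozygous contrast, P301S Cgas+/- against P301S Cgas+/+, the difference was 15.3 points (exact permutation p = 0.152, adjusted 0.284), and in the tau contrast, P301S Cgas+/+ against Cgas+/+, it was -10.6 points (exact permutation p = 0.379, adjusted 0.473). In the libraries of version 3.1.0 alone, 3 or 4 a group and in each P301S group 3 females and 1 male, the differences were 29.7, 29.2 and -29.1 points. In the version 3.0.2 libraries alone, 2 males a group, they had the opposite signs, at -1.49, -12.5 and 22.7 points (exact permutation p = 1, 0.333 and 0.333, where 0.333 is the smallest that 2 against 2 allow). Without both libraries that stood apart they were 15.9, 13.5 and -7.15 points. CA3-like nuclei were at 0.568 ± 0.620% against 3.35 ± 3.25% in the deletion contrast (exact permutation p = 0.0216, adjusted 0.227), and CA1-like nuclei at 8.10 ± 4.72% against 18.3 ± 10.1% in the heterozygous contrast (exact permutation p = 0.0455, adjusted 0.227). No share passed 0.05 after adjustment over the 15 tests, where 0.00216 is the smallest exact p that these group sizes allow. With 1 mouse left out, CA3-like nuclei in the deletion contrast passed without P301S Cgas+/+ replicate 2 (-3.45 points, exact permutation adjusted p = 0.0325), and in the heterozygous contrast CA1-like nuclei passed without its replicate 1 (-13.3 points, exact permutation adjusted p = 0.0325) and CA2-like nuclei without its replicate 2 (-0.513 points, exact permutation adjusted p = 0.0487). Among the 3 males of each group the cortical-like difference was 19.1 points for the tau, -5.28 for the deletion and -8.99 for the heterozygous contrast, each with the opposite sign to that in all mice. Among females it was -45.2, 43.8 and 39.6 points in the same order (exact permutation p = 0.100 each, adjusted 0.167). A test of 3 against 3 mice cannot go below an exact p of 0.100.

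The hippocampal genes ranged widely over neurons within each genotype. Prox1 was at 48.4, 144, 26.3, 83.8 and 58.7 CPM in the 5 Cgas+/+ libraries, 49.3 and 119 in Cgas+/-, and 122 and 105 in Cgas-/-. With the transgene it ran from 18.4 to 164 CPM (median 81.9) in P301S Cgas+/+, from 7.99 to 97.3 (51.4) in P301S Cgas+/- and from 17.7 to 79.0 (53.6) in P301S Cgas-/-. The lowest library of all was P301S Cgas+/- replicate 1, and both Cgas-/- libraries lay above every P301S Cgas+/- and P301S Cgas-/- library and above 4 of the 5 Cgas+/+ libraries. The other pairs of groups overlapped. The number of all genes that separate the Cgas-/- libraries in this way was not counted, so it sets Prox1 in no way apart. Zbtb20 was at 1612, 2916, 571, 1282 and 1418 CPM in Cgas+/+, 1172 and 2304 in Cgas+/-, and 2718 and 2415 in Cgas-/-. Its range was 637 to 3134 CPM (median 2040) in P301S Cgas+/+, 713 to 1561 (1300) in P301S Cgas+/- and 255 to 1690 (1245) in P301S Cgas-/-. The 2 lowest P301S Cgas-/- libraries, replicates 2 and 6, were also the 2 lowest of the group for Prox1. Bcl11b varied least of the 3, between 155 and 480 CPM over the 27 libraries, with 202, 303, 247, 262 and 224 CPM in Cgas+/+ and medians of 283, 239 and 248 CPM in P301S Cgas+/+, P301S Cgas+/- and P301S Cgas-/-.

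The upper layer genes Cux2 and Rorb overlapped between the P301S groups, with the lowest values of these groups in the 3 P301S Cgas+/+ females. Cux2 was at 105, 92.2, 259, 176 and 178 CPM over neurons in Cgas+/+, 153 and 60.2 in Cgas+/-, and 51.2 and 61.2 in Cgas-/-. It ran from 69.0 to 211 CPM (median 109) in P301S Cgas+/+, 172 to 242 (189) in P301S Cgas+/- and 107 to 271 (205) in P301S Cgas-/-. Rorb, whose layer 4 signal is read in neurons apart from astrocytes, was at 27.5, 13.5, 57.1, 36.0 and 29.2 CPM in Cgas+/+, 28.7 and 15.1 in Cgas+/-, and 20.8 and 19.5 in Cgas-/-. It ran from 12.1 to 72.5 CPM (median 30.2) in P301S Cgas+/+, 34.5 to 214 (80.1) in P301S Cgas+/- and 35.6 to 119 (74.2) in P301S Cgas-/-. Both Cgas-/- libraries lay below every Cgas+/+ library for Cux2 but not for Rorb. The number of all genes that separate these libraries in the same way was not counted, so this sets no gene apart.

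The deep layer genes and Tshz2 overlapped between the P301S groups as well. Tbr1 was at 4.93, 6.94, 9.75, 12.2 and 5.16 CPM in Cgas+/+, 7.35 and 5.34 in Cgas+/-, and 2.97 and 4.59 in Cgas-/-, and had medians of 6.24, 10.0 and 10.5 CPM in P301S Cgas+/+ (range 3.14 to 10.3), P301S Cgas+/- (8.19 to 11.9) and P301S Cgas-/- (8.02 to 14.2). Fezf2 ranged from 3.37 to 13.9 CPM over the 27 libraries, both ends in Cgas+/+. Foxp2 ran from 8.84 to 87.1 CPM (median 44.0) in P301S Cgas+/+ and from 50.8 to 116 (70.7) in P301S Cgas-/-. In P301S Cgas+/- it ran from 54.5 to 104 CPM in 5 libraries and stood at 415 CPM in replicate 1, the library rich in striatal projection neuron-like nuclei. Tshz2 was at 136 CPM in that same library against 1143 to 1552 CPM in the other 5, and at 168 to 1328 CPM (median 977) in P301S Cgas+/+ and 1153 to 1770 (1358) in P301S Cgas-/-.

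**Figure D3:**
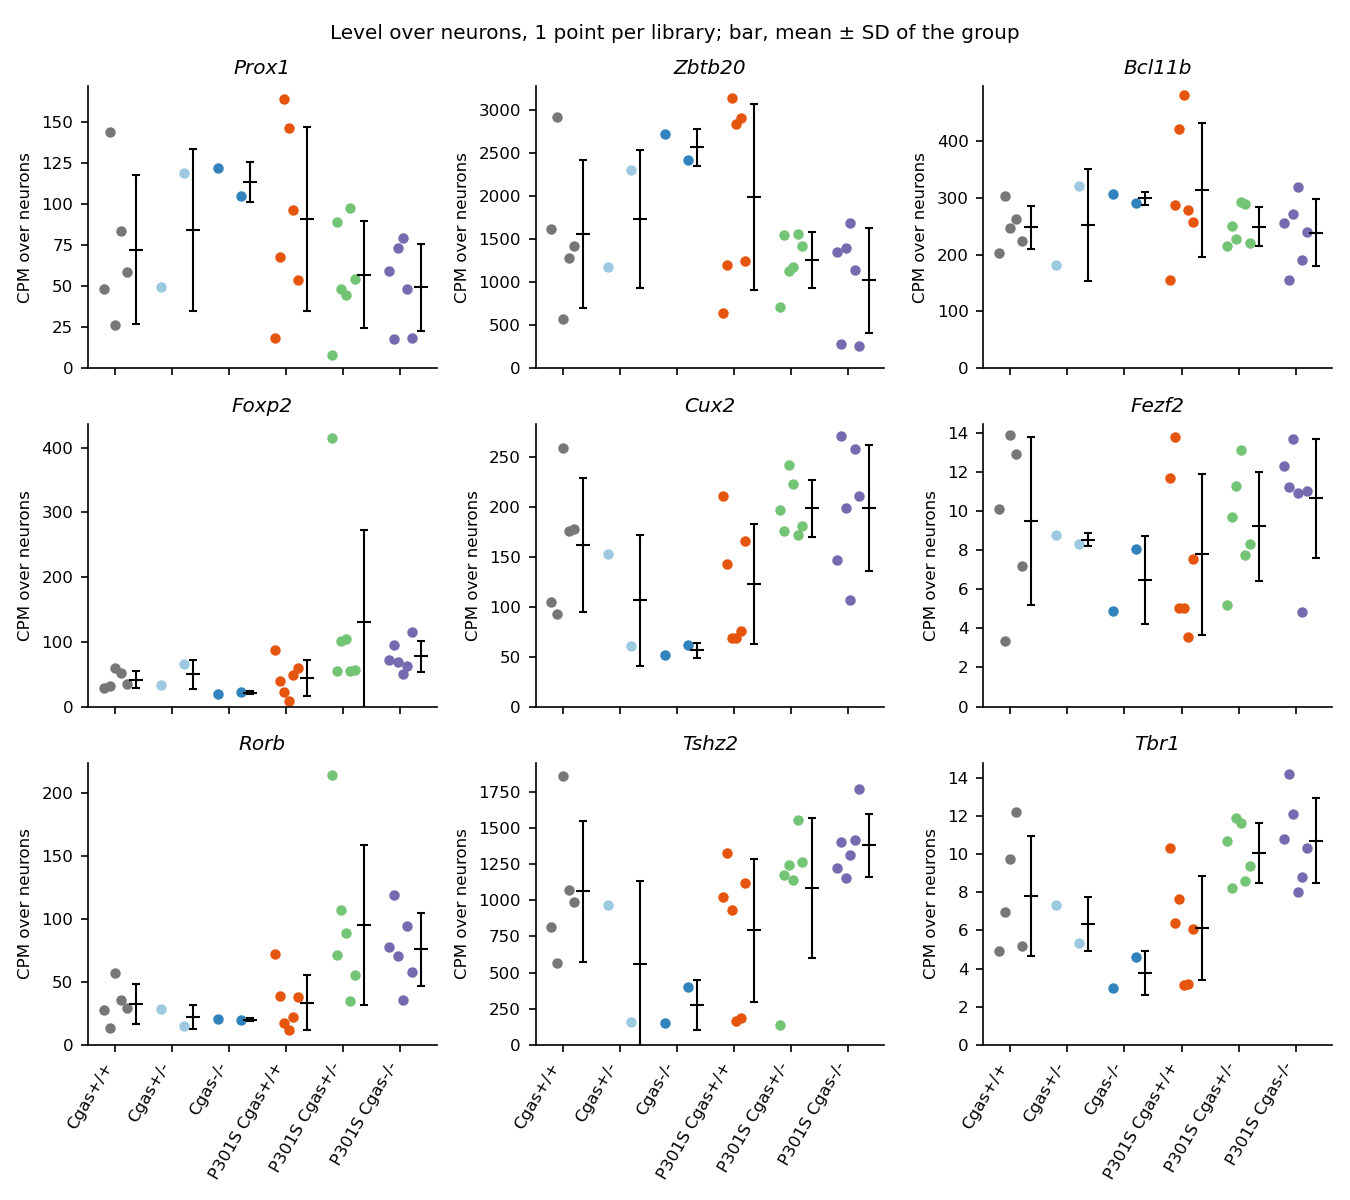
CPM over neurons (y axis, one panel per gene) in each of the 27 libraries (points), by genotype group (x axis), with the group mean and SD as bars. P301S Cgas+/- replicate 1 stands apart at 415 CPM of Foxp2 and 136 CPM of Tshz2, and the P301S groups overlap in every panel.

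Across libraries, the level of each gene over neurons, as log2(CPM + 1), went with the share of cortical-like nuclei. The cortical-like nuclei are among the neurons summed, so the sign of each relation follows largely from the class levels above. The relations describe the makeup of the libraries and are no separate support for it. Over 27 libraries Pearson r was -0.67 for Prox1, -0.82 for Zbtb20 and -0.56 for Bcl11b (Spearman rho -0.64, -0.74 and -0.43). For the cortical genes r was 0.84 for Cux2, 0.76 for Fezf2, 0.65 for Rorb, 0.77 for Tshz2, 0.77 for Tbr1 and 0.59 for Foxp2 (rho 0.66, 0.73, 0.58, 0.71, 0.68 and 0.59). All 9 relations passed after adjustment over the 9, by permutation of the libraries (100000 resamples), with adjusted p-values of at most 0.0263 for rho and 0.00200 for r, both those of Bcl11b. Without the 2 libraries farthest from the median share, P301S Cgas+/+ replicate 4 and Cgas-/- replicate 1, r ran from -0.80 (Zbtb20) to 0.79 (Cux2), with 0.44 for Foxp2 and -0.45 for Bcl11b.

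The libraries fell on both sides of a wide gap in this share, 7 at 3.58% to 17.1% and 20 at 28.7% to 68.5%. For every gene r was smaller in size on either side than over all libraries. How far the pooled values rest on the step between the sides was not tested. Among the 7 libraries below the gap, no relation passed (Pearson r from -0.42 to 0.76, smallest exact permutation adjusted p = 0.502, for Tbr1). Among the 20 above it, r passed for Zbtb20 (r = -0.65, permutation adjusted p = 0.0257) and Fezf2 (r = 0.56, permutation adjusted p = 0.0448) and for none of the other 7, and no rho passed, the smallest permutation adjusted p being 0.118. Without the 2 farthest libraries above the gap r was -0.34 for Zbtb20 and 0.62 for Fezf2. Rorb stood at r = 0.02 there and Bcl11b at 0.04. The levels of 3 genes did not overlap across the gap. How many of all genes did the same was not counted, so this sets no gene apart. Zbtb20 was at 2304 to 3134 CPM below the gap and 255 to 1690 above it, Cux2 at 51.2 to 92.2 and 105 to 271, and Rorb at 12.1 to 22.4 and 27.5 to 214. The other 6 overlapped, such as Prox1 at 96.2 to 164 and 7.99 to 97.3 CPM and Tshz2 at 151 to 933 and 136 to 1857 CPM. Within software versions, in the 12 libraries of version 3.0.2 r ran from -0.79 (Zbtb20 and Bcl11b) to 0.92 (Cux2), with 8 of 9 relations passing and Foxp2 at 0.44 (permutation adjusted p = 0.153). In the 15 libraries of version 3.1.0 all 9 passed, from -0.87 (Zbtb20) to 0.82 (Fezf2). Without both libraries that stood apart, r ran from -0.83 (Zbtb20) to 0.89 (Tshz2).

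**Figure D4:**
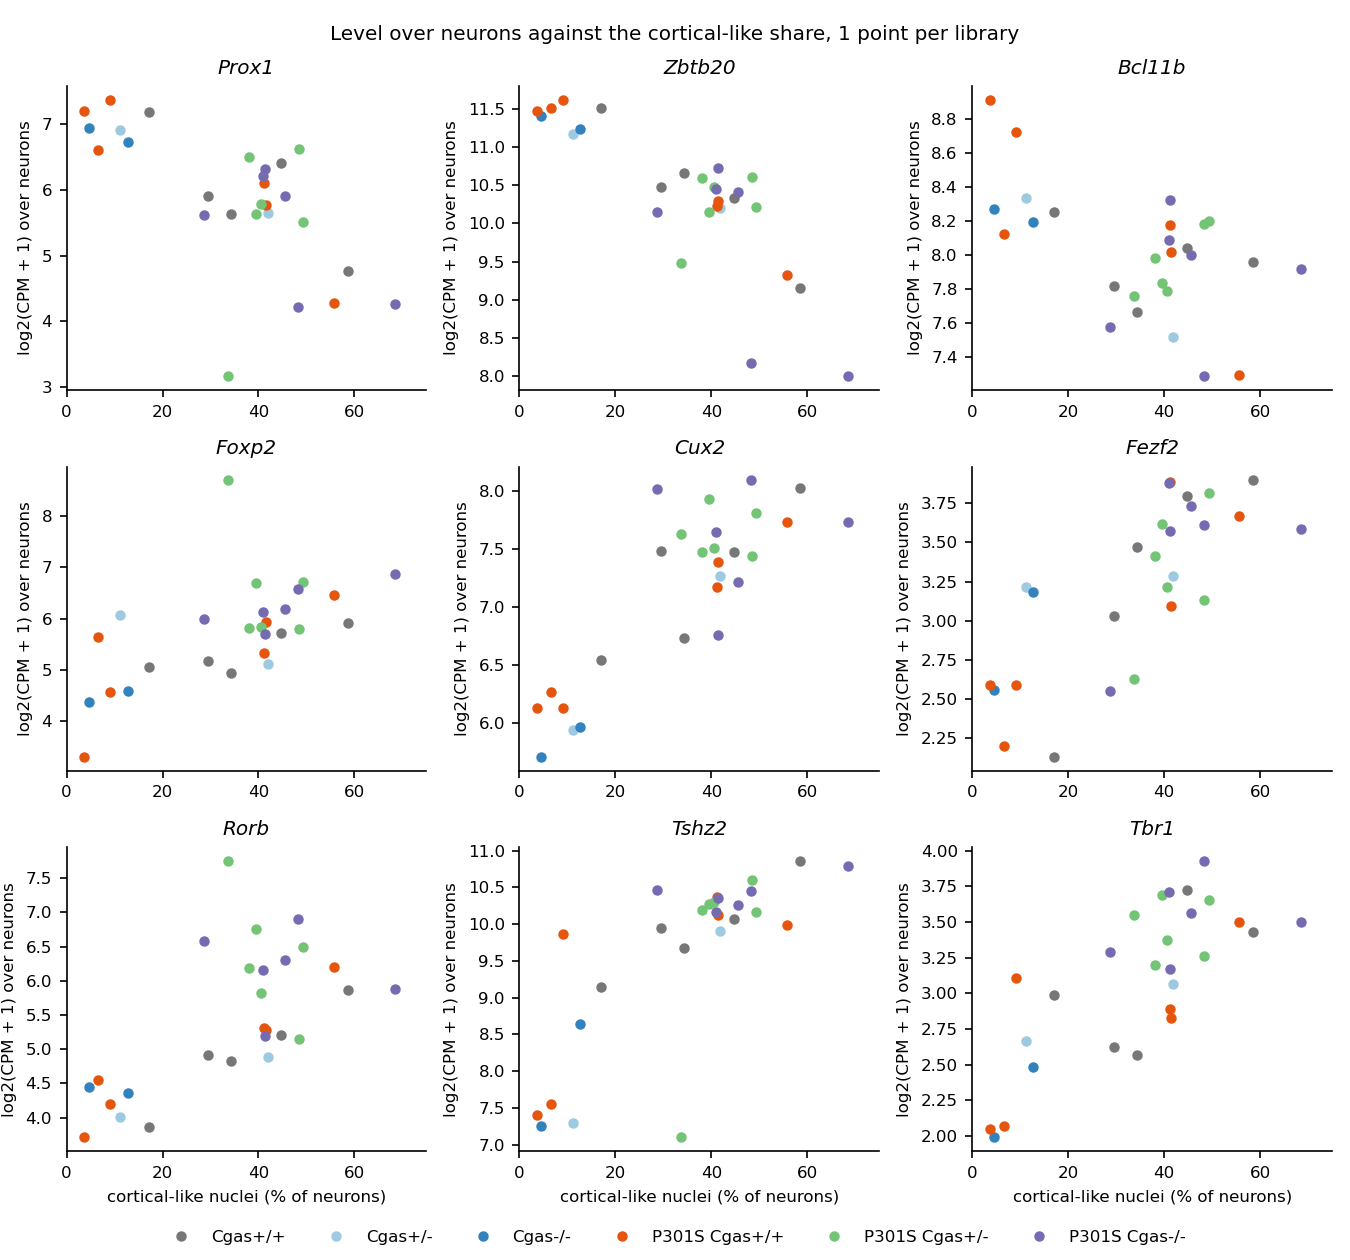
Level over neurons as log2(CPM + 1) (y axis, one panel per gene) against cortical-like nuclei as a percent of neurons (x axis), with 1 point per library coloured by genotype group. The 7 libraries at or under 17.1% sit apart from the 20 at or over 28.7%, most clearly for Zbtb20 and Cux2.

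In the tau contrast, none of the 9 genes was called over neurons by edgeR's quasi-likelihood test, against 0.0216% of the 18524 genes tested (4 genes). Log2 fold changes were 0.12 ± 0.56 (SE) for Prox1, 0.20 ± 0.49 for Zbtb20 and 0.27 ± 0.20 for Bcl11b, and -0.47 ± 0.31 for Cux2, -0.41 ± 0.55 for Tshz2, -0.36 ± 0.25 for Tbr1, -0.28 ± 0.34 for Fezf2, -0.17 ± 0.39 for Rorb and 0.00 ± 0.48 for Foxp2. The edgeR adjusted p was 0.9996 for each of the 9. Before adjustment 461 genes had a p under 0.05 and none of them was among the 9. DESeq2 called 20 genes, none of the 9.

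In the deletion contrast the 3 hippocampal genes had negative and the 6 cortical genes positive fold changes over neurons. Log2 fold changes were -0.85 ± 0.52 (SE) for Prox1, -0.95 ± 0.45 for Zbtb20 and -0.43 ± 0.19 for Bcl11b. They were 1.21 ± 0.37 for Rorb, 0.77 ± 0.24 for Tbr1, 0.69 ± 0.30 for Cux2, 0.87 ± 0.46 for Foxp2, 0.75 ± 0.53 for Tshz2 and 0.40 ± 0.33 for Fezf2. None was called, nor was any of the 18524 genes tested (0%), and the smallest edgeR adjusted p of the 9 was 0.231, for Rorb. At an unadjusted p under 0.05 stood 5 of the 9 (Zbtb20, Bcl11b, Cux2, Rorb and Tbr1) and 2233 of all genes, and DESeq2 called 119 genes, none of them among the 9.

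The heterozygous contrast, which shares its control libraries with the deletion contrast, gave the same signs. Log2 fold changes over neurons were -0.64 ± 0.51 for Prox1, -0.65 ± 0.45 for Zbtb20 and -0.36 ± 0.19 for Bcl11b, and 1.50 ± 0.37 for Rorb, 1.48 ± 0.46 for Foxp2, 0.71 ± 0.30 for Cux2, 0.69 ± 0.24 for Tbr1, 0.40 ± 0.54 for Tshz2 and 0.20 ± 0.33 for Fezf2. EdgeR called none of the 9 and 0% of all genes, with the smallest adjusted p of the 9 at 0.225 for Rorb, while before adjustment a p under 0.05 was found for 4 of the 9 (Foxp2, Cux2, Rorb and Tbr1) and 1825 of all genes. By DESeq2 there were 68 calls and, of the 9, Rorb alone (adjusted p = 0.0243). Foxp2 rested on P301S Cgas+/- replicate 1, without which its log2 fold change was 0.75 and that of Rorb 1.20. Without both libraries that stood apart, Foxp2 was at 0.59, Rorb at 1.08, Tshz2 at 0.79 and Prox1 at -0.25 in this contrast, and Rorb was at 1.09 and Zbtb20 at -0.84 in the deletion contrast. In the libraries of version 3.1.0 alone, which in each P301S group are 3 females and 1 male, every sign was kept in both contrasts, with Rorb at 1.60 here and 1.48 for the deletion. The version 3.0.2 libraries, 2 males a group, gave smaller values or the opposite sign for most. For the deletion, Prox1 was there at -0.18 ± 1.09, Zbtb20 at -0.15 ± 0.73, Bcl11b at -0.14 ± 0.40, Rorb at 0.80 ± 0.55, Tbr1 at 0.55 ± 0.29, Foxp2 at 0.39 ± 0.73, Cux2 at 0.20 ± 0.39, Tshz2 at 0.12 ± 0.97 and Fezf2 at -0.14 ± 0.46. In the heterozygous contrast, where replicate 1 of P301S Cgas+/- is 1 of the 2, Prox1 (0.12), Zbtb20 (0.26), Bcl11b (0.03), Tshz2 (-0.88) and Fezf2 (-0.81) had the opposite sign and Cux2 (0.06), Tbr1 (0.17), Rorb (1.36) and Foxp2 (1.90) kept theirs. EdgeR called none of the 9 in these fits, chosen after seeing the data, nor any of 17904 genes in either contrast (0%).

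The contrasts were also read in fits of each sex alone, chosen after seeing the data. Over neurons of females, edgeR called Cux2 in the tau (-1.57, adjusted p = 0.0208), deletion (1.27, adjusted p = 0.0303) and heterozygous contrasts (1.40, adjusted p = 0.0294). It also called Fezf2 in the 3 contrasts (-1.53, 1.38 and 1.08 in that order, edgeR adjusted p = 0.0117, 0.0113 and 0.0420) and Rorb in the deletion contrast (1.63, edgeR adjusted p = 0.0453). Of all 17594 genes, 1.92%, 2.34% and 0.989% were called there. Cux2 was at 69.0 to 75.7 CPM in the 3 P301S Cgas+/+ females, and at 172 to 223 in the P301S Cgas+/- and 107 to 211 in the P301S Cgas-/- females. These are the P301S Cgas+/+ females with 3.58% to 9.11% cortical-like neurons, and all female libraries are of version 3.1.0. One of them, replicate 3, stood apart, and which genes were called turned on it. Tshz2 was at 933 CPM in that library and at 168 and 187 CPM in the other 2, and Tbr1 at 7.63, 3.14 and 3.20 CPM in the same order. Without it Cux2 (-1.52, 1.22 and 1.36) and Rorb (1.61 for the deletion) were no longer called, with edgeR adjusted p-values of 0.0529, 0.0725 and 0.0603 for Cux2 and 0.101 for Rorb. Fezf2 was called for tau and the deletion (-1.57 and 1.42) and not in the heterozygous contrast (edgeR adjusted p = 0.0572). Tshz2 (-2.97, 2.96 and 2.85, edgeR adjusted p = 0.00567, 0.00484 and 0.00523) and Tbr1 (-1.71, 1.63 and 1.59, edgeR adjusted p = 0.0104, 0.00917 and 0.0125) were called in all 3. Of 17632 genes, 1.27%, 1.65% and 1.26% were called there. The part of this makeup in the calls was not tested.

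Over neurons of males, edgeR called none of the 9 in the 3 contrasts, against 0.0111% of 18048 genes in the tau contrast and 0% in the others. At an unadjusted p under 0.05 stood Rorb (1.01) in the tau, Rorb (0.92) and Tbr1 (0.51) in the deletion and Rorb (1.35) and Foxp2 (1.56) in the heterozygous contrast. How many of all genes stood there in these fits was not counted, so this sets no gene apart. Foxp2 again rested on P301S Cgas+/- replicate 1, at 415 CPM, and without that library was at 0.31 for the males, with Rorb at 0.82. None of the 9 was called there either, against 0.0111% of 17975 genes for tau and 0% otherwise. For the deletion Prox1 was at -0.22 and Cux2 at 0.31, and for the heterozygous contrast they were at -0.05 and 0.18. The difference between the sexes, females minus males, was tested in 54 cases over neurons and all nuclei. It passed for 2 of them, both in the tau contrast: Cux2 over neurons (-1.97 ± 0.44, edgeR adjusted p = 0.0350) and Tbr1 over all nuclei (-1.91 ± 0.39, edgeR adjusted p = 0.0246). Of all genes, 1.34% passed there over neurons and 0.810% over all nuclei. In the deletion and heterozygous contrasts no difference between the sexes passed for the 9, the largest over neurons being that of Tshz2 in the heterozygous contrast (2.13 ± 0.86, edgeR adjusted p = 0.493). Without both libraries that stood apart, 7 of the 54 passed. Over neurons these were Tshz2 in the tau (-3.47 ± 0.42), deletion (2.79 ± 0.40) and heterozygous contrasts (2.82 ± 0.43) and Tbr1 in the tau contrast (-2.07 ± 0.34), with edgeR adjusted p-values of 8.08e-04, 0.0103, 0.0143 and 0.00484, against 1.27%, 0.169% and 0.0711% of all genes. Over all nuclei Tshz2 passed in the tau (-3.44) and deletion contrasts (2.73) and Tbr1 in the tau contrast (-2.20), against 0.486% and 0.0253% of all genes. Cux2 over neurons no longer passed (-1.91 ± 0.50, edgeR adjusted p = 0.0686). Each of these contrasts includes the 2 or 3 P301S Cgas+/+ females, with at most 9.11% cortical-like neurons, and the part of that makeup was not tested.

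Over hippocampal-like nuclei alone the signs were mixed. For the deletion, log2 fold changes were -0.15 for Prox1, -0.22 for Zbtb20, 0.54 for Foxp2, 0.58 for Cux2, 0.74 for Tshz2 and 0.15 for Tbr1, each of the same sign as over all neurons. Bcl11b (0.11), Fezf2 (-0.01) and Rorb (-0.07) had the opposite sign. These sums include the CA1-like nuclei of P301S Cgas-/- replicate 6, which had Cux2 at 29.2 CPM. The rest of that group had 1.59 to 3.84 CPM in CA1-like nuclei. In the heterozygous contrast 7 of the 9 had the opposite sign, from -0.61 for Fezf2 to 0.15 for Zbtb20, with Rorb at -0.04, and Foxp2 (1.12) and Tbr1 (0.21) kept theirs.

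Within the dentate granule-like class the identity genes had log2 fold changes from -0.19 to 0.14 in the 3 contrasts, with SEs near 0.10. Prox1 was at 304 to 371 CPM (median 357) in P301S Cgas+/+, 278 to 333 (317) in P301S Cgas+/- and 302 to 445 (322) in the 5 P301S Cgas-/- libraries with at least 20 such nuclei. Its log2 fold change was 0.00 ± 0.10 (SE) for the deletion, -0.19 ± 0.10 for the heterozygous and 0.09 ± 0.10 for the tau contrast. Zbtb20 gave 0.02 ± 0.10, 0.07 ± 0.09 and 0.14 ± 0.10, and Bcl11b 0.02 ± 0.12, -0.03 ± 0.11 and 0.09 ± 0.12, in the same order. None of the 8 genes tested there was called by edgeR in the 3 contrasts, against 0.00697% of all genes in the tau contrast and 0% in the others (691, 619 and 740 genes at an unadjusted p under 0.05 in the tau, deletion and heterozygous contrast), and Fezf2, at 0 to 1.60 CPM, was below the low-count filter. Tshz2 (1.02 ± 0.46, deletion) and Foxp2 (heterozygous) had an unadjusted edgeR p under 0.05. The cortical genes ran from -0.80 (Tshz2) to 0.06 (Rorb) for tau, from -0.18 (Cux2) to 1.02 (Tshz2) for the deletion and from -0.28 (Cux2) to 0.95 (Foxp2) in the heterozygous contrast.

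In CA1-like nuclei the SEs were wider. Zbtb20 stood at 0.00 ± 0.26 for the deletion and 0.23 ± 0.27 for the heterozygous contrast (log2 fold), and Bcl11b -0.06 ± 0.16 and 0.11 ± 0.16. In CA3-like nuclei, where 3 P301S Cgas-/- libraries had enough nuclei, Zbtb20 was at -0.05 ± 0.13 and -0.01 ± 0.11. Over all 9 genes, CA1-like nuclei gave -0.74 (Rorb) to 0.13 (Prox1) for tau, -0.14 (Rorb) to 0.69 (Cux2) for the deletion and -0.72 (Prox1) to 0.98 (Foxp2) in the heterozygous contrast. The Cux2 value for the deletion rested on P301S Cgas-/- replicate 6, at 29.2 CPM against 1.59 to 3.84 in the rest of that group. That library also had Zbtb20 at 606 CPM in this class, against 2275 to 2807 in the rest. Prox1, Cux2 and Fezf2 were below the filter in CA3-like nuclei, and the other 6 gave -0.30 (Tshz2) to 0.22 (Foxp2), -1.13 (Tbr1) to 0.72 (Tshz2) and -0.52 (Rorb) to 1.54 (Foxp2) there, in the same order. The ends of these ranges rest on few UMIs. P301S Cgas-/- held 2 of Tbr1 and 11 of Tshz2 in this class, and P301S Cgas+/- held 28 of Foxp2. None of the genes was called in either class by edgeR, against 0.00746% of genes in CA1-like and 0.00994% in CA3-like nuclei in the tau contrast and 0% in the deletion and heterozygous contrasts. At an unadjusted p under 0.05 stood 253, 344 and 362 genes in CA1-like and 366, 525 and 796 in CA3-like nuclei. In these 3 contrasts Foxp2 had the smallest unadjusted edgeR p of the 9 in the dentate granule-like and CA1-like classes, in the heterozygous contrast, at 0.95 ± 0.30 (edgeR adjusted p = 0.938) and 0.98 ± 0.31 (edgeR adjusted p of 1). Its levels there were 5.56 to 16.6 and 4.94 to 15.3 CPM in P301S Cgas+/-, under the 46.0 CPM that was its lowest level in cortical-like nuclei, and the fold changes were 0.91 and 0.94 without P301S Cgas+/- replicate 1.

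Within cortical-like nuclei no gene was called either, against 0.0238% of the 16811 genes in the tau contrast and 0% in the other contrasts (edgeR, 431, 908 and 1055 genes at an unadjusted p under 0.05 in the tau, deletion and heterozygous contrast). In the deletion contrast Tbr1 was at 0.38 ± 0.18, Rorb at 0.29 ± 0.38, Cux2 at 0.30 ± 0.27, Tshz2 at -0.29 ± 0.36 and Fezf2 at -0.15 ± 0.27. In the heterozygous contrast the values were 0.31 ± 0.18, 0.56 ± 0.38, 0.38 ± 0.27, -0.55 ± 0.36 and -0.25 ± 0.27. Rorb and Tshz2 there moved most with P301S Cgas+/- replicate 1, which had Rorb at 426 CPM and Tshz2 at 200 CPM in this class against 65.6 to 189 and 2055 to 3138 CPM in the other 5 libraries. Without it Tbr1 was at 0.28, Rorb at 0.21, Cux2 at 0.51, Tshz2 at -0.31 and Fezf2 at -0.16. Without P301S Cgas+/+ replicate 3, Cux2 was at 0.14 and Rorb at 0.16 for the deletion, and at 0.22 and 0.43 in the heterozygous contrast. Tshz2 and Fezf2 thus had positive fold changes over all neurons and negative ones within the class, and Tbr1, Rorb and Cux2 had smaller positive ones within the class than over neurons. The other 4 genes were at -0.40 ± 0.21 (Bcl11b), -0.37 ± 0.18 (Zbtb20), -0.48 ± 0.37 (Prox1) and 0.47 ± 0.33 (Foxp2) for the deletion, and at -0.44, -0.22, -0.63 and 0.67 in the heterozygous contrast. In the tau contrast Rorb was at 0.83 ± 0.40 and Bcl11b at 0.51 ± 0.22, and the other 7 ran from -0.54 (Cux2) to 0.44 (Fezf2). At an unadjusted edgeR p under 0.05 stood Bcl11b and Rorb in the tau, Zbtb20 and Tbr1 in the deletion and Bcl11b in the heterozygous contrast.

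**Figure D5:**
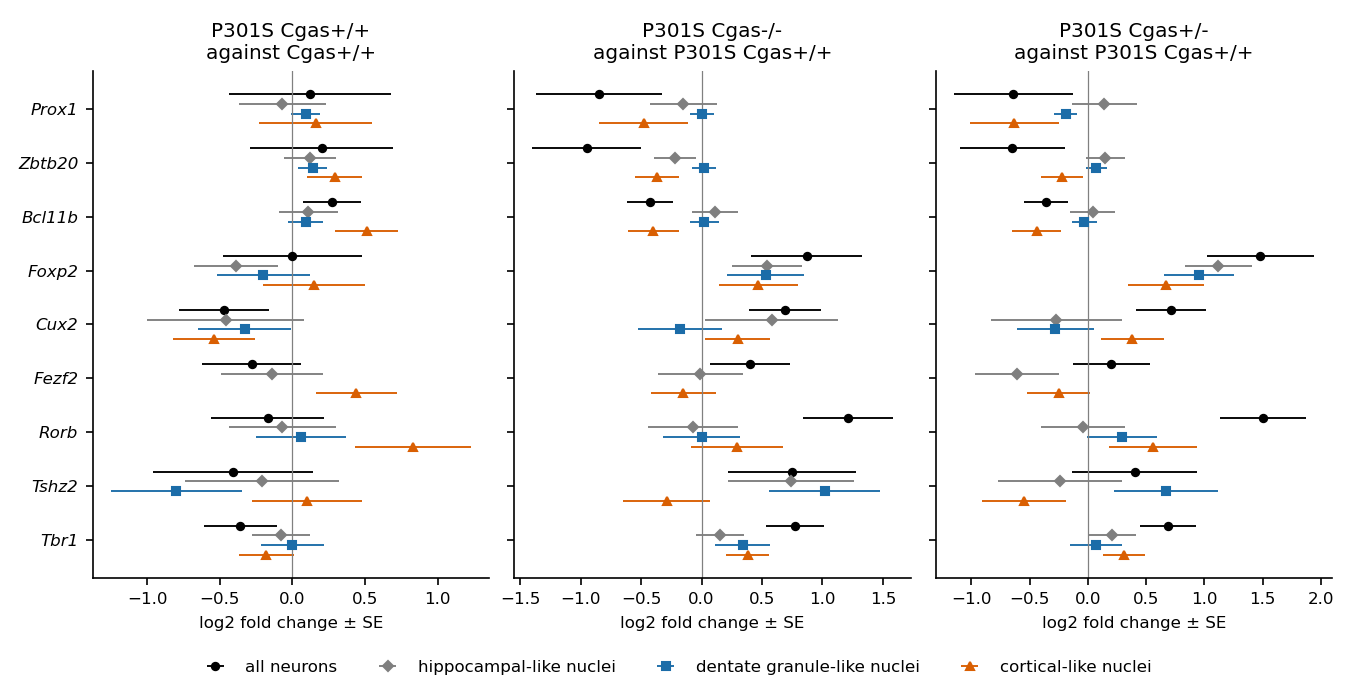
Log2 fold change with its SE (x axis) for each of the 9 genes in the tau, deletion and heterozygous contrasts (panels), over all neurons and within hippocampal-like, dentate granule-like and cortical-like nuclei (colours). In the deletion contrast Rorb stands at 1.21 over neurons and -0.07 in hippocampal-like nuclei, and Prox1 at -0.85 over neurons and 0.00 in dentate granule-like nuclei.

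Over all nuclei glia add to the sums, and the fold changes for the deletion kept their signs. Rorb was at 84.8 to 221 CPM (median 185) in P301S Cgas+/+, 134 to 291 (229) in P301S Cgas+/- and 150 to 284 (202) in P301S Cgas-/-, and its log2 fold change for the deletion was 0.34 ± 0.19, against 1.21 over neurons. Zbtb20 was at -0.58 ± 0.28 and Prox1 at -0.43 ± 0.33. Bcl11b, with 97.9% of its UMIs in neurons, was at -0.27 ± 0.19, against -0.43 over neurons, Cux2 at 0.48 ± 0.24 and Fezf2 at 0.34 ± 0.30. Tbr1, with 93.2% of its UMIs in neurons, was at 0.84 ± 0.26, against 0.77 over neurons, and Foxp2 (85.4%) at 0.86 ± 0.42 and Tshz2 (96.3%) at 0.85 ± 0.51. The tau contrast ran from -0.66 (Tshz2) to 0.22 (Zbtb20), and the heterozygous contrast from -0.42 (Prox1) to 1.48 (Foxp2, 0.73 without P301S Cgas+/- replicate 1). EdgeR called none of the 9 over all nuclei, against 0.0251% of 19955 genes in the tau contrast and 0% in the deletion and heterozygous contrasts, with 1879, 1938 and 1438 genes at an unadjusted p under 0.05, and DESeq2 called none of the 9. Over all nuclei of females alone edgeR called Fezf2 (-1.45) and Tbr1 (-1.60) in the tau and Fezf2 (1.21) in the deletion contrast, against 1.33% and 0.542% of 19003 genes. Without P301S Cgas+/+ replicate 3, Fezf2 (-1.50), Tbr1 (-1.90) and Tshz2 (-3.05) were called for tau, and Tshz2 for the deletion (2.86) and in the heterozygous contrast (2.73), against 0.335%, 0.244% and 0.186% of 18827 genes, while Fezf2 for the deletion was not (1.27, edgeR adjusted p = 0.0801).

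Without the transgene, the fold changes over neurons had signs opposite to those of the P301S deletion contrast. Comparing the 2 Cgas-/- with the 5 Cgas+/+ libraries, the log2 fold change was 0.84 ± 0.71 (SE) for Prox1, 0.83 ± 0.62 for Zbtb20 and 0.45 ± 0.27 for Bcl11b. It was -1.65 ± 0.48 for Cux2, -1.92 ± 0.86 for Tshz2, -1.01 ± 0.38 for Tbr1, -1.07 ± 0.59 for Rorb, -1.19 ± 0.72 for Foxp2 and -0.50 ± 0.50 for Fezf2. Over all nuclei Rorb kept its sign, at 0.25 ± 0.28 against 0.34 with the transgene. None was called (0% of genes called by edgeR, 1147 at an unadjusted p under 0.05, and 3 of the 9, Cux2, Tshz2 and Tbr1), and the smallest edgeR adjusted p of the 9 was 0.711. The 2 Cgas-/- libraries held 4.57% and 12.7% cortical-like neurons. In the tau-free heterozygous contrast, the 2 Cgas+/- against the 5 Cgas+/+ libraries over neurons, Prox1 was at 0.32 ± 0.73, Zbtb20 at 0.19 ± 0.63, Bcl11b at 0.13 ± 0.27, Cux2 at -0.77 ± 0.46, Tshz2 at -0.92 ± 0.81, Tbr1 at -0.32 ± 0.36, Rorb at -1.01 ± 0.58, Foxp2 at -0.04 ± 0.68 and Fezf2 at -0.16 ± 0.49. EdgeR called none of them nor any other gene (0%, 288 at an unadjusted p under 0.05, none of the 9), with an adjusted p of 0.9999 for each. By DESeq2 there were 15 calls for the tau-free deletion and 0 for the tau-free heterozygous contrast, none of the 9 among them. Within the dentate granule-like, CA1-like, CA3-like and cortical-like classes, none was called by edgeR in the tau-free contrasts (0% of genes). Log2 fold changes there ran from -2.12 (Tshz2, dentate granule-like) to 0.89 (Rorb, cortical-like) for the deletion and from -1.52 (Tshz2, CA1-like) to 1.24 (Foxp2, cortical-like) in the heterozygous contrast. The difference between the deletion effect with and without the transgene was tested directly over neurons and all nuclei (36 tests with the heterozygous effect). It was largest over neurons for Tshz2, at 2.67 ± 1.03, and had its smallest adjusted p for Cux2, at 2.34 ± 0.57 (edgeR adjusted p = 0.0797) and Tbr1, at 1.79 ± 0.46 (edgeR adjusted p = 0.0860). None of the 36 passed. Both small groups are males whose file headers name software version 3.0.2, and the Cgas+/+ group held 2 such libraries. Tshz2 was at 817 and 567 CPM in these 2 and at 151 and 398 CPM in the Cgas-/- libraries, and Cux2 at 105 and 92.2 CPM against 51.2 and 61.2 CPM. These 2 Cgas+/+ libraries held 34.3% and 17.1% cortical-like neurons. In the version 3.0.2 libraries alone, the tau-free deletion gave log2 fold changes of -0.75 ± 0.40 for Cux2, -1.29 ± 0.99 for Tshz2 and -0.59 ± 0.30 for Tbr1, and in males alone -1.16, -1.53 and -0.56, none of them called.

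Other markers of the subfields and layers were read from lists chosen with earlier results known. Over neurons in the deletion contrast, where 50.9% of all genes had a positive fold change, 0 of the 8 dentate granule markers had a positive fold change, with a median log2 fold change of -0.79, and the medians were -0.38 for 7 CA1 and -0.44 for 6 CA3 markers, against 0.00 over all genes. Of 28 cortical markers of all layers, 18 were positive with a median of 0.22, and of the 8 upper layer markers 6 were positive with a median of 0.33. Of 29 other subfield and layer transcription factors tested, 19 were positive with a median of 0.20. In the heterozygous contrast, where 51.8% of all genes were positive, 0 of 7 CA1 markers (median -0.60) and 7 of 8 upper layer markers (median 0.48) were positive. The other lists are not given here for that contrast. EdgeR called no gene of any list in any contrast.

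Mef2c, a transcription factor that the study followed in neurons, is given beside them by the same rule. Over neurons Mef2c was at -0.14 ± 0.20 for tau and, without the transgene, at -0.68 ± 0.30 for the deletion and -0.21 ± 0.29 in the heterozygous contrast, none called. In P301S mice it had a log2 fold change of 0.61 ± 0.19 (SE) for the deletion (edgeR adjusted p = 0.234) and 0.66 ± 0.19 for the heterozygous contrast (edgeR adjusted p = 0.243). In the deletion contrast it was -0.06 ± 0.09 within dentate granule-like, 0.25 ± 0.34 within CA1-like and 0.43 ± 0.20 within cortical-like nuclei. Its level over neurons went with the cortical-like share too, with a Pearson r of 0.62 (rho 0.53) over 27 libraries (permutation p = 0.000560 for r, outside the family of 9). That sum over neurons too includes the cortical-like nuclei.

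Whether the level of a gene inside the dentate granule-like and cortical-like classes went with the makeup of the library was tested in 18 relations, of which 3 passed. Tshz2 in dentate granule-like nuclei ran from 1.82 to 26.7 CPM over 26 libraries and went with the cortical-like share of the library (Pearson r = 0.83, rho = 0.72, permutation p = 1e-05 for r, the smallest that 100000 resamples give, adjusted 9e-05 over the 18). Prox1 in cortical-like nuclei ran from 0.960 to 6.68 CPM and went with the dentate granule-like share (r = 0.77, rho = 0.79, permutation adjusted p = 9e-05 for r). Zbtb20 in cortical-like nuclei, at 105 to 294 CPM, did so as well (r = 0.60, rho = 0.58, permutation adjusted p = 0.00678 for r). Without the 2 farthest libraries r was 0.76, 0.75 and 0.46. The other 5 cortical genes in dentate granule-like nuclei did not pass, with r from -0.06 for Tbr1 to 0.36 for Cux2 (permutation adjusted p from 0.152 to 0.771). The Tshz2 and Prox1 levels are small beside those in the class that expresses the gene, 2589 CPM for Tshz2 and 331 CPM for Prox1, and the part of free RNA or leftover doublets in them was not tested. Inside the class that does express it, Prox1 did not go with the cortical-like share (r = 0.19, rho = 0.11, permutation p = 0.344 for r, adjusted 0.494).

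The genes whose level over neurons was most like that of each factor were named by rank correlation over the 27 libraries, among 10047 genes with a mean of at least 5 CPM. For Prox1 they were Frmd4b (rho 0.99), Prox1os (0.98) and Slc29a4 (0.98). Prox1os is antisense to Prox1 and was counted as a gene of its own, at 2.44 to 58.2 CPM. The strand setting of the counting is not stated, and whether reads of one were counted for the other was not tested. For Zbtb20 they were Htr4, Vav3 and Gpr37 (0.95 each), and for Bcl11b Grin2a (0.91), Lrch1 (0.91) and Iqgap2 (0.90). Among the cortical genes, Cux2 was nearest to Lmtk2 (0.96), Rorb to Sorcs1 (0.95), Tbr1 to Cldn12 (0.94), Foxp2 to Arhgap25 (0.93), Tshz2 to Zmat4 (0.90) and Fezf2 to Meg3 (0.89). Among the 9 themselves, rho was 0.91 for Prox1 with Zbtb20, 0.85 for Cux2 with Rorb, and -0.86 for Zbtb20 with Cux2. The points are libraries that also share their makeup and depth, and these values carry no test.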

How the data were processed

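Nuclei of mouse hippocampus were profiled with a 10x Chromium 3' v3 kit, 1 library per mouse, in 27 mice of 6 genotype groups taken from the labels. The authors deposited raw UMI counts per gene and barcode, with pre-mRNA reads counted, so intronic reads add to long genes. The submitters' processing notes name mm10, Cell Ranger 3.1.0 and Seurat 3.0, whereas the file headers name software version 3.0.2 for 12 libraries and 3.1.0 for 15. The annotation release and strand setting are not given in the sources used here. Gene positions came from a GENCODE vM21 annotation.

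A barcode was kept at 200 to 4000 genes with no more than 5% of UMIs from mitochondrial genes, and the highest doublet scores were removed at 0.8% per 1000 barcodes (16429 of 221281). Nuclei were clustered (scanpy 1.11.5, Leiden, 2000 genes, 30 components, none of the 9 genes among them) into 48 clusters, 44 of them named, and excitatory nuclei into 41 subclusters, 34 of them named. Unnamed clusters held 4.06% of nuclei and unnamed subclusters 13.1% of excitatory nuclei. Of the barcode sequences, 7324 of 234470 occurred in more than 1 library.

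Counts were summed per mouse and tested with edgeR 4.0.16 (quasi-likelihood, TMM, low-count filter, sex as a term), adjusted by Benjamini-Hochberg over all genes tested, with calls at an adjusted p under 0.05. Classes used mice with at least 20 nuclei. Shares were tested with exact permutations and relations with 100000 permutations. Steps were tested on simulated data. Alternatives included DESeq2 1.42.0, RLE scaling, no low-count filter, no sex term, doublets kept and each mouse left out. Those by software version, by sex and without libraries that stood apart (both together, or 1 within a sex) were chosen after seeing the data. The 9 genes and the gene lists were chosen with earlier results of these data known. By rule all 9 genes were to be named in every population and contrast, with Mef2c beside them. Each is given over neurons, and elsewhere some are given by range. Another gene of that rule is not reported here. Median depth was 2225 to 8996 UMIs per barcode.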

Additional observations from a re-analysis of the deposited data

Results flagged for a closer look

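In 10 of 92 groups of 4 to 10 libraries, a single library lay far from the rest by Dixon's criterion, which chance alone does in about 1 of 20 groups. P301S Cgas+/- replicate 1, the library with 38.6% striatal projection neuron-like neurons, accounted for 4 of them. Its Foxp2 was at 365 CPM over all nuclei, against 51.8 to 93.9 in the other 5, and at 415 CPM over neurons, against 54.5 to 104. Its Tshz2 was at 132 CPM over all nuclei, against 898 to 1181, and at 136 CPM over neurons, against 1143 to 1552. P301S Cgas-/- replicate 5 had Fezf2 at 5.01 CPM over all nuclei, against 10.8 to 13.8, and at 4.85 CPM over neurons, against 10.9 to 13.7. That same library had 0.765% CA2-like nuclei among its neurons, against 0 to 0.0988% in the others. In P301S Cgas-/- replicate 6, with 68.5% cortical-like neurons, Tshz2 over all nuclei was at 1475 CPM, against 960 to 1019. CA3-like nuclei made up 9.54% of neurons in P301S Cgas+/+ replicate 5, against 0 to 3.13%, and 3.41% in P301S Cgas+/- replicate 6, against 0 to 1.05%. The tau contrast differed between females and males, by a direct test, for Cux2 over neurons (-1.97 on the log2 scale, females minus males) and Tbr1 over all nuclei (-1.91), 2 of the 54 such differences tested. Without both libraries that stood apart, Cux2 no longer passed (-1.91, edgeR adjusted p = 0.0686) and Tbr1 did (-2.20, edgeR adjusted p = 0.0160). The 3 P301S Cgas+/+ females had 3.58% to 9.11% cortical-like neurons and the 2 Cgas+/+ females 44.8% and 58.6%.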

How the results depend on the processing

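No paired analysis was possible because replicate numbers follow accession order, so mice of different groups share only a number. Over the 117 fold changes, leaving out 1 mouse gave 3129 values, of which 90 changed sign, and the other alternatives gave 942, of which 98 changed sign and 24 passed the threshold, Rorb in the heterozygous contrast over neurons by DESeq2, 10 in females alone and 13 in females without P301S Cgas+/+ replicate 3. The cause of a change was not tested.

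The number of genes called moved most. DESeq2 called 309, 15 and 14 genes over all nuclei and 20, 119 and 68 over neurons in the tau, deletion and heterozygous contrasts, with 1 of the 9 among them. The libraries of version 3.1.0 alone gave 579 in the tau contrast over all nuclei, excitatory neurons alone 1 in the heterozygous and hippocampal-like neurons alone 2 in the tau contrast. Females alone gave 253, 103 and 34 over all nuclei (with 2, 1 and 0 of the 9) and 337, 412 and 174 over neurons (with 2, 3 and 2 of the 9), and males alone 2 in the tau contrast over both. Females without P301S Cgas+/+ replicate 3 gave 63, 46 and 35 over all nuclei (with 3, 1 and 1 of the 9) and 224, 291 and 222 over neurons (with 3, 3 and 2 of the 9). In the tau contrast, males without P301S Cgas+/- replicate 1 gave 2 over neurons and version 3.0.2 alone gave 1 over both. Leaving out 1 mouse gave 4 to 206 (without P301S Cgas+/+ replicate 2), 0 to 4 and 0 to 1 over all nuclei, and 4 to 9, 0 to 46 and 0 to 4 over neurons, the highest without P301S Cgas+/+ replicate 1 except in the tau contrast.

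Over hippocampal-like nuclei, signs turned in the tau contrast for Prox1 (-0.07) and Foxp2 (-0.39), in the deletion contrast for Bcl11b (0.11), Fezf2 (-0.01) and Rorb (-0.07), and in the heterozygous contrast for Prox1 (0.14), Zbtb20 (0.15), Bcl11b (0.04), Cux2 (-0.27), Fezf2 (-0.61), Rorb (-0.04) and Tshz2 (-0.24). In the tau contrast, Foxp2 over neurons turned with version 3.1.0 alone (-0.43), doublets kept (-0.05) and excitatory neurons alone (-0.39), and over all nuclei without both libraries that stood apart (0.02). Rorb over all nuclei turned with no sex term (-0.0049), version 3.1.0 alone (-0.14), doublets kept (-0.02) and all barcodes (-0.06).

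In males alone, signs over neurons turned in the tau contrast for Prox1 (-0.83), Zbtb20 (-0.93), Bcl11b (-0.06), Cux2 (0.42), Fezf2 (0.62), Rorb (1.01), Tshz2 (0.51) and Tbr1 (0.38), in the deletion contrast for Fezf2 (-0.27), in the heterozygous contrast for Zbtb20 (0.03), Fezf2 (-0.38) and Tshz2 (-0.51), and without tau in the heterozygous contrast for Tbr1 (0.12). Over all nuclei they turned in the tau contrast for Prox1 (-0.48), Zbtb20 (-0.54), Bcl11b (-0.09), Foxp2 (0.64), Cux2 (0.22), Fezf2 (0.49), Tshz2 (0.40) and Tbr1 (0.31), in the deletion contrast for Prox1 (0.04) and Fezf2 (-0.31), in the heterozygous contrast for Prox1 (0.01), Fezf2 (-0.38) and Tshz2 (-0.50), and without tau for Tbr1 (0.24). In females alone Foxp2 over neurons (-0.98) and Rorb over all nuclei (-0.23) turned in the tau contrast, and likewise without P301S Cgas+/+ replicate 3 (-0.85 and -0.18). In males without P301S Cgas+/- replicate 1, signs over neurons turned in the tau contrast for Prox1 (-0.81), Zbtb20 (-0.92), Bcl11b (-0.05), Cux2 (0.42), Fezf2 (0.63), Rorb (1.02), Tshz2 (0.52) and Tbr1 (0.38), in the deletion contrast for Fezf2 (-0.28), in the heterozygous contrast for Prox1 (0.45), Zbtb20 (0.27), Fezf2 (-0.11) and Tshz2 (-0.01), and without tau for Tbr1 (0.12).

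In version 3.0.2 alone, signs over neurons turned in the tau contrast for Prox1 (-1.19), Zbtb20 (-1.35), Bcl11b (-0.23), Cux2 (0.77), Fezf2 (0.85), Rorb (1.35), Tshz2 (0.71) and Tbr1 (0.42), in the deletion contrast for Fezf2 (-0.14), in the heterozygous contrast for Prox1 (0.12), Zbtb20 (0.26), Bcl11b (0.03), Fezf2 (-0.81) and Tshz2 (-0.88), and without tau in the heterozygous contrast for Cux2 (0.11) and Tbr1 (0.09). Over all nuclei they turned in the tau contrast for Prox1 (-0.78), Zbtb20 (-0.85), Bcl11b (-0.12), Foxp2 (0.91), Cux2 (0.45), Fezf2 (0.77), Tshz2 (0.72) and Tbr1 (0.45), in the deletion contrast for Prox1 (0.10) and Fezf2 (-0.18), in the heterozygous contrast for Prox1 (0.10), Zbtb20 (0.06), Bcl11b (0.10), Fezf2 (-0.74) and Tshz2 (-0.84), and without tau for Cux2 (0.02) and Tbr1 (0.28).

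With 1 mouse left out, tau contrasts over all nuclei ran from -0.03 to 0.52 for Prox1, -0.02 to 0.43 for Zbtb20, -0.13 to 0.16 for Bcl11b, -0.34 to 0.08 for Foxp2 and -0.09 to 0.11 for Rorb. Over neurons they ran from -0.18 to 0.59 for Prox1, -0.12 to 0.55 for Zbtb20, -0.16 to 0.27 for Foxp2 and -0.44 to 0.28 for Rorb. Within dentate granule-like nuclei the ranges were -0.41 to 0.15 for Foxp2 (tau), -0.11 to 0.07 for Prox1, -0.04 to 0.07 for Zbtb20 and -0.05 to 0.06 for Bcl11b (deletion), and -0.10 to 0.01 for Bcl11b (heterozygous). In CA1-like nuclei Zbtb20 ran from -0.05 to 0.32 (tau) and -0.11 to 0.22 (deletion), and Bcl11b from -0.14 to 0.07 (deletion). In CA3-like nuclei Zbtb20 ran from -0.18 to 0.03 (deletion) and -0.09 to 0.03 (heterozygous), and in cortical-like nuclei Tshz2 from -0.03 to 0.22 and Tbr1 from -0.31 to 0.03 (tau).

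Among shares, males alone turned the tau contrast for dentate granule-like (-16.3 points), CA2-like (-0.280) and cortical-like nuclei (19.1), the deletion contrast for cortical-like (-5.28) and the heterozygous contrast for dentate granule-like (1.80) and cortical-like nuclei (-8.99). Version 3.0.2 alone turned the tau contrast for dentate granule-like (-21.7 points), CA1-like (-0.640), CA2-like (-0.635) and cortical-like nuclei (22.7), the deletion contrast for cortical-like (-1.49) and the heterozygous contrast for dentate granule-like (2.51) and cortical-like nuclei (-12.5). Females alone (3.60) and version 3.1.0 alone (1.68) turned CA3-like nuclei in the tau contrast, and leaving out both libraries that stood apart turned dentate granule-like nuclei (-1.65). With 1 mouse left out, the tau contrast ran from -1.65 to 9.96 points for dentate granule-like and -0.0527 to 0.229 for CA2-like nuclei. CA3-like nuclei in the deletion contrast ran from -3.45 to -1.54 and passed without P301S Cgas+/+ replicate 2, CA1-like nuclei in the heterozygous contrast from -13.3 to -7.18 and passed without P301S Cgas+/+ replicate 1, and CA2-like nuclei there from -0.513 to -0.270 and passed without P301S Cgas+/+ replicate 2. Of the relations with the cortical-like share, Foxp2 in version 3.0.2 alone (r = 0.44) no longer passed. Fezf2 was too low to be tested in dentate granule-like nuclei, and 3 P301S Cgas-/- libraries had enough CA3-like nuclei.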

Other observations

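Outside neurons, some of these factors were also present in small classes named by markers of the vessel wall, the ventricle and the meninges. Zbtb20 was at 4770 ± 284 CPM (SD over 14 libraries with at least 20 such nuclei) in ependymal-like nuclei, 4510 ± 929 in fibroblast-like (11 libraries) and 4146 ± 398 in mural-like nuclei (22 libraries), beside 4249 in dentate granule-like nuclei. Tshz2 was at 1431 ± 345 CPM in endothelial-like nuclei (19 libraries) and 140 ± 72.6 in mural-like nuclei, both below its 2589 in cortical-like nuclei. Foxp2 in fibroblast-like nuclei ran from 229 to 2560 CPM over 11 libraries. Inhibitory neuron-like nuclei had Prox1 at 62.7 ± 18.9 CPM and Bcl11b at 144 ± 29.7 over 27 libraries, both genes that some interneurons are known to express.

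A pair of excitatory subclusters that took no class name had levels of these genes that differed from those of the list that scored highest for them. One of 2195 nuclei scored highest for the dentate granule list, on 2 markers, and had Prox1 at 2.03 CPM, Zbtb20 at 199, Cux2 at 357 and Tshz2 at 4743. Another, of 1089 nuclei, scored highest for the layer 6 list with CA3 close behind, and had Zbtb20 at 4000 CPM, Bcl11b at 48.4 and Tbr1 at 3.25.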
